A study of Mus musculus with 2 samples.

Results

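The 4 genes of the DNA methyltransferase family, Dnmt1, Dnmt3a, Dnmt3b and Dnmt3l, were examined for binding of Tcf3 at the probes named for them. Probes of the arrays, those named Aire included, matched 2 of 3 annotated starts of Dnmt1, 0 of 3 of Dnmt3a, 1 of 1 of Dnmt3b and 2 of 3 of Dnmt3l. Binding at the starts of Dnmt3a was therefore not shown to be measured. Their probes were the non-control spots named for 1 of the genes, or for a pair of neighbouring genes that contains one, which gave 119 probes of 474380 and 4 genes of 17032. Array 1 carried 57 of these probes, 29 for Dnmt1 and 28 for Dnmt3b, among 237195 probes in all. Array 2 carried 62, 31 for Dnmt3a and 31 for Dnmt3l, among 237185 probes in all, and 19 of the Dnmt3l probes bear the joint name Aire-Dnmt3l. The upstream matched start of Dnmt3l was matched only by spots named Aire, which are not among the 119. The other was matched by 26 of the 45 bases of 1 probe.

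Tcf3 binding was mapped by chromatin immunoprecipitation and promoter arrays in E14 cells, a line of mouse embryonic stem cells, grown without feeder cells. Each array compared DNA of the immunoprecipitate, labelled with Cy5, with input DNA, labelled with Cy3, and the sources used here give no treatment, time or genotype for the cells. Tcf3 is the antibody target given in the sample titles, and the protocol lists several antibodies without assigning one to the arrays. The 2 arrays had 0 probes in common, so each gene was measured once, with no replicate, no control immunoprecipitation and no test of a difference, and the sources used here do not say whether 1 immunoprecipitate served both arrays.

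DNA methyltransferases place methyl groups on cytosines, in mammals mostly where a guanine follows. Dnmt1 copies the methylation pattern onto the new strand after replication, Dnmt3a and Dnmt3b methylate DNA that was unmethylated, and Dnmt3l has no catalytic activity of its own but binds and stimulates the Dnmt3 enzymes. Mouse embryonic stem cells express all of them, and Dnmt3b is known for its high level in pluripotent cells. Tcf3, now named Tcf7l1, belongs to the Tcf/Lef family, whose members bind short DNA sites with the core CTTTG and carry the output of the Wnt pathway.

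Values are log2 ratios of Cy5 over Cy3, centred on the median of each array, so that 0 is the median probe and 1 is a ratio 2 times as high. They therefore differ by that centring from the plain ratio of the intensities given with a probe. The error given with a probe is the scanner software's own error for that spot and not a spread between replicates. A set is a probe and the closest probe on either side, up to 1000 bp away, and a gene is described by its highest set mean, with the SD over the 2 or 3 probes of that set. A probe was called as bound where the scatter below each array's median gave its set mean an upper-tail probability under 0.001 and its own value or those of its set also stood high, which for a set of 3 probes needed a mean of at least 1.47 on array 1 and 1.69 on array 2. In 30.7% of the spots of array 1 and 51.8% on array 2, 1 channel or both held a surrogate, a value the software wrote for a signal not above background, and the other spots are called measured.

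Dnmt3b was the one gene of the family with called probes. Its highest set mean was 2.58 ± 1.22 (SD over 3 probes), a 5.99-fold ratio of immunoprecipitate over input relative to the median probe. The other genes gave 0.79 ± 0.14 (Dnmt1, 3 probes), 0.72 ± 1.14 (Dnmt3a, 3 probes) and 0.31 ± 0.64 (Dnmt3l, 2 probes), none of them called. On array 1, 1 of the 2 genes was called, where 22.0% of all genes were, and on array 2, 0 of 2, where 3.56% were. With spots measured in both channels only, the count was again 1 of 2 against 15.9% of the genes of array 1 and 0 of 2 against 10.5% of those of array 2. With measured spots and the trend of the ratio with GC content removed, it was 1 of 2 against 18.7% and 0 of 2 against 7.04%. Among genes with at least 3 probes, Dnmt3b held rank 92 of 8486 on array 1, where 98.8% of genes were lower, and Dnmt1 rank 6734, where 20.5% were lower. On array 2, Dnmt3a held rank 6183 of 8385 and Dnmt3l rank 7812, so that 26.1% and 6.69% of genes were lower.

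**Figure D1:**
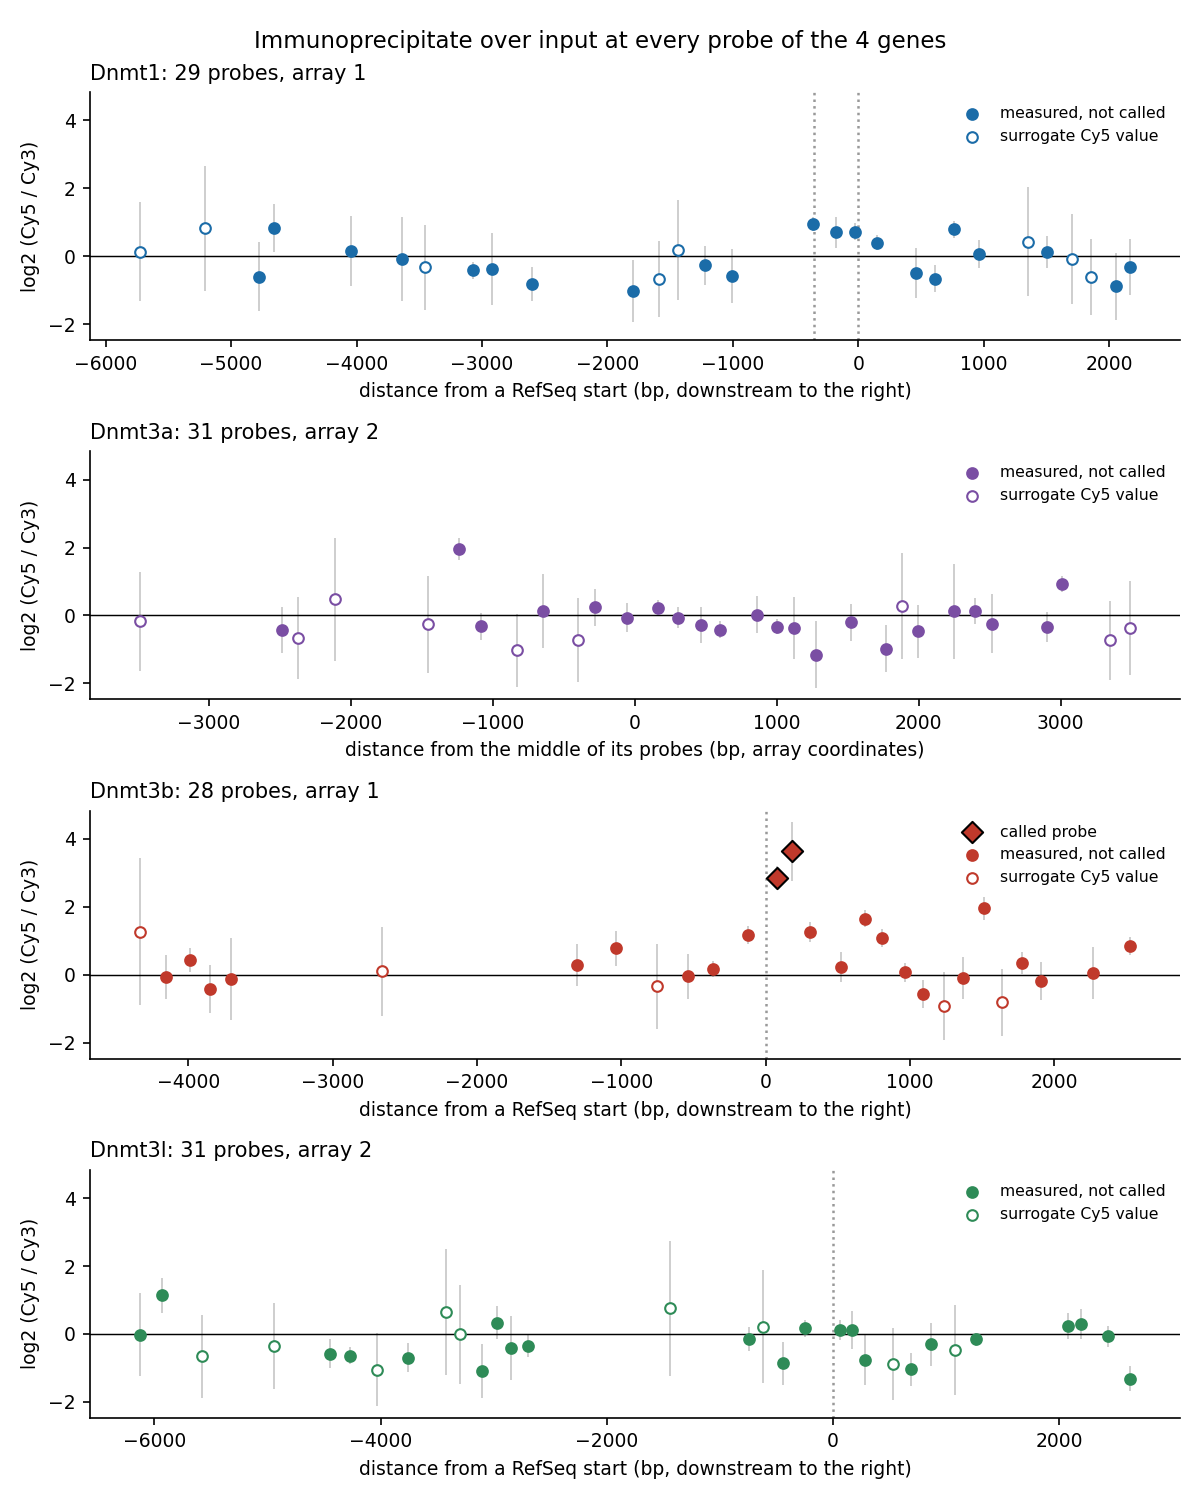
Log2 ratio of immunoprecipitate (Cy5) over input (Cy3) at each of the 119 probes, by distance in bp from a RefSeq start (dotted lines) or, for Dnmt3a, from the middle of its probes. Grey bars are the scanner software's error, open circles are surrogate values and diamonds are called probes: the 2 called probes of Dnmt3b, at 2.85 and 3.64, stand just downstream of its start.

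Dnmt3b, a de novo methyltransferase, was covered by 28 probes over 6915 bp of chromosome 2, chr2:153385940-153392854 in the array's coordinates, whose genome build is not given in those sources. A single start is annotated for the gene in the RefSeq promoter table of build GRCm38.p6. One probe matched that promoter exactly, which sets the start at position 153390306 of the array's coordinates and gives the other probes their distance from it. The matched probe is in capitals in the promoter, which holds 250 bases before the start and 50 after it and has a GC content of 76.0%.
Dnmt3b promoter, GRCm38.p6, chr2:153649199-153649498, plus strand: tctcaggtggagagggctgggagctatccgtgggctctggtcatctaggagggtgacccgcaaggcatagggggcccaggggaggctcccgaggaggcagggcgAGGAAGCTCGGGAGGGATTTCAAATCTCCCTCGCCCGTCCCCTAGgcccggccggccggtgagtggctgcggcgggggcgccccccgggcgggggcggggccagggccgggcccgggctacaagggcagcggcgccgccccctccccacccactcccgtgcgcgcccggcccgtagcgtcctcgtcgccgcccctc

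This probe and the next 3 downstream are shown because the gene's highest set mean comes from the last 3 of them. Capitals would mark the letters CTTTG or their complement CAAAG, and none of the 4 holds them.
Dnmt3b probe chr2:153390160-153390204: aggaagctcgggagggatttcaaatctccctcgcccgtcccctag
Dnmt3b probe chr2:153390363-153390407: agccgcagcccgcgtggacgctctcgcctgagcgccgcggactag
Dnmt3b probe chr2:153390469-153390514: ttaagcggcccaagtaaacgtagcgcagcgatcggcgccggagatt
Dnmt3b probe chr2:153390588-153390632: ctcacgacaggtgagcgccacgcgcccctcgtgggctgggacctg

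In the promoter probe, which lies at -146 to -102 from the start, the Cy5 intensity was 3193 and the Cy3 intensity 1678, a log2 ratio of 1.17 ± 0.25. The probe at 57 to 101 bases downstream had 5175 in Cy5 and 847 in Cy3, a ratio of 2.85 ± 0.34. The next, at 163 to 208 bases downstream, had 873 in Cy5 and 82.8 in Cy3, a ratio of 3.64 ± 0.87. Both of these downstream probes were called. They span 152 bp, average 3.25 ± 0.56 (SD, 2 probes), and stand above 99.3% and 99.9% of the measured probes of array 1. The fourth probe, at 282 to 326 bases downstream, gave 1915 in Cy5 and 950 in Cy3, a ratio of 1.25 ± 0.29. Without removal of the GC trend, the log2 ratio was therefore highest in the 2 probes at 57 to 208 bases downstream of the start. These lie beyond the end of the promoter sequence shown, and the probes on both sides were lower. No probe of the gene lay between -102 and 57, so the start itself was not measured. The 3.64 of the highest probe rests on a dim input: its Cy3 intensity lay at the 4.73rd percentile of the array, whereas its Cy5 intensity was below that of each of the other 3 probes. Without the spots in the lowest 10% of input intensity, a choice made after the data were seen, the highest set mean was 1.86 and the gene was called through 1 probe.

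**Figure D2:**
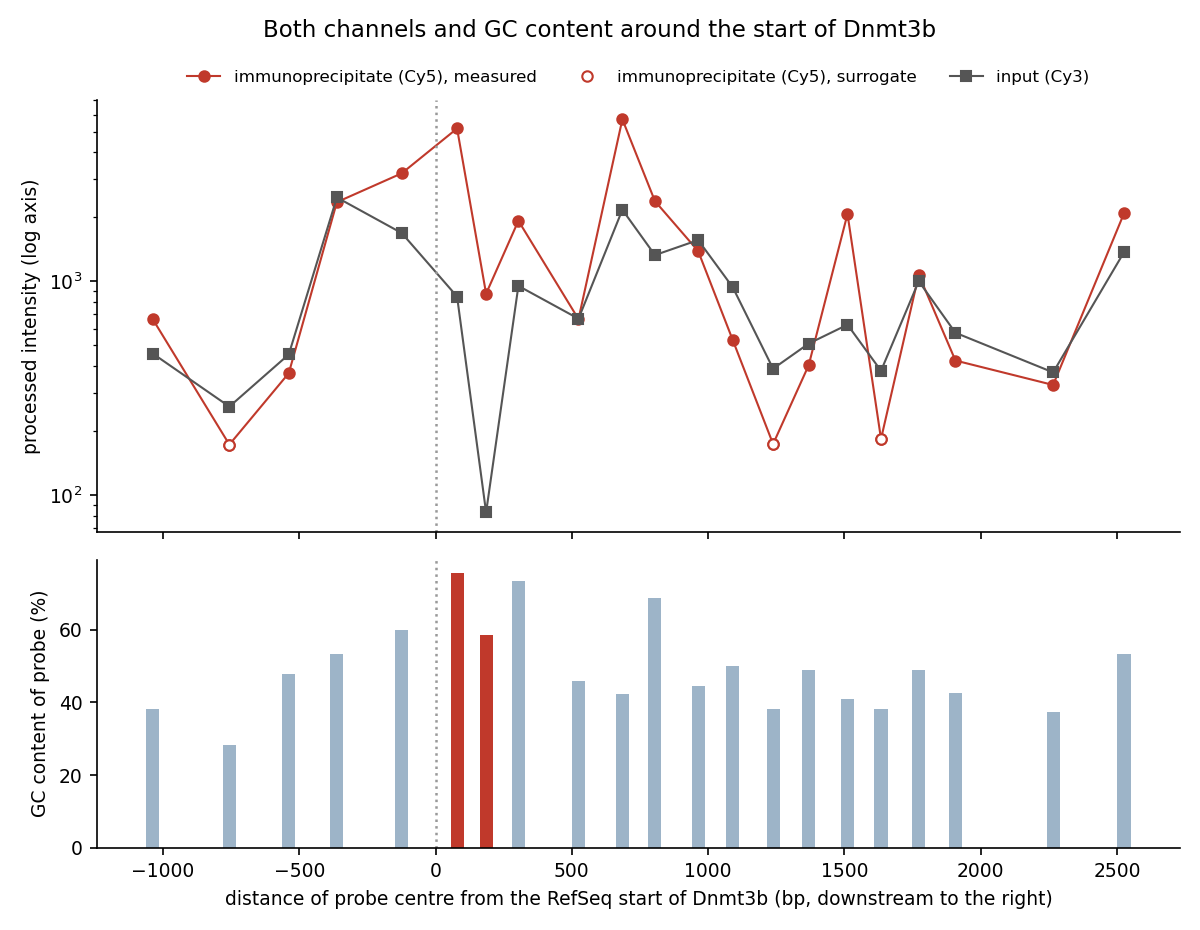
Processed intensity of the immunoprecipitate (Cy5) and of the input (Cy3) on a log axis, and GC content of each probe in percent, by distance in bp of the probe's centre from the RefSeq start of Dnmt3b (dotted line). Red bars are the 2 called probes, and the one 163 to 208 bases downstream combines a Cy5 intensity of 873 with a Cy3 intensity of 82.8.

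A further 3 measured probes of Dnmt3b exceeded 1. The one at 660 to 711 bases downstream, chr2:153390966-153391017, had 5712 in Cy5 and 2157 in Cy3, a ratio of 1.65 ± 0.25. Its neighbour at 783 to 827 bases, chr2:153391089-153391133, gave 1.08 ± 0.26. The third, at 1484 to 1539 bases, chr2:153391790-153391845, gave 1.96 ± 0.34 with 2060 in Cy5 and 625 in Cy3, while both of its neighbours were below 0. None of these 3 was called. In all, 8 of the 28 probes exceeded 1, 7 of them measured in both channels, and 18 exceeded 0. The remaining one above 1, at 1.26 ± 2.16 and farthest upstream, was a surrogate. The 5 probes within 500 bp of the start had a median of 1.25 and a range of 0.17 to 3.64, and the 23 farther away a median of 0.07 and a range of -0.93 to 1.96.

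GC content moved with the log ratio on both arrays, and not in 1 direction only. On array 1 the median of measured probes fell from 0.61 in the bin centred at 27% GC to -0.38 at 39%. It then rose to 1.85 at 81%. On array 2 it was 0.81 at 29%, -0.45 at 41% and 1.35 at 77%. Over measured probes in the same 2% bin of GC content as the Dnmt3b probe 57 to 101 bases downstream, which has 75.6% GC, the median log2 ratio was 1.56 (454 probes), and 88.1% of them lay below that probe's 2.85. The probe at 282 to 326 bases, with 73.3% GC, gave 1.25 where such probes had a median of 1.46 (661 probes). The probe at 783 to 827 bases, with 68.9% GC, gave 1.08 against a median of 1.23 (1087 probes). Neither stood above its GC class. By contrast, the probe at 660 to 711 bases, with 42.3% GC, stood above 97.2% of 16122 such probes, and the one at 1484 to 1539 bases, with 41.1% GC, above 98.3% of 22250. In measured spots with the GC trend removed, the called pair had 1.30 (the 75.6% GC probe) and 3.10 (the dim one), the promoter probe 0.52, and the 2 distal probes of low GC content 1.91 and 2.29. The dim probe has 58.7% GC and only 48 measured probes in its bin, so the median of a neighbouring bin was subtracted from it. The highest set mean of Dnmt3b then was 1.64 ± 1.33 (SD over 3 probes), its number of called probes 1 in place of 2, and its rank 923 of 8323 genes. That set is not the one of 2.58: it holds the promoter probe in place of the probe at 282 to 326 bases. The latter had -0.20 with the GC trend removed. The part of GC content in the Dnmt3b signal was not tested.

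**Figure D3:**
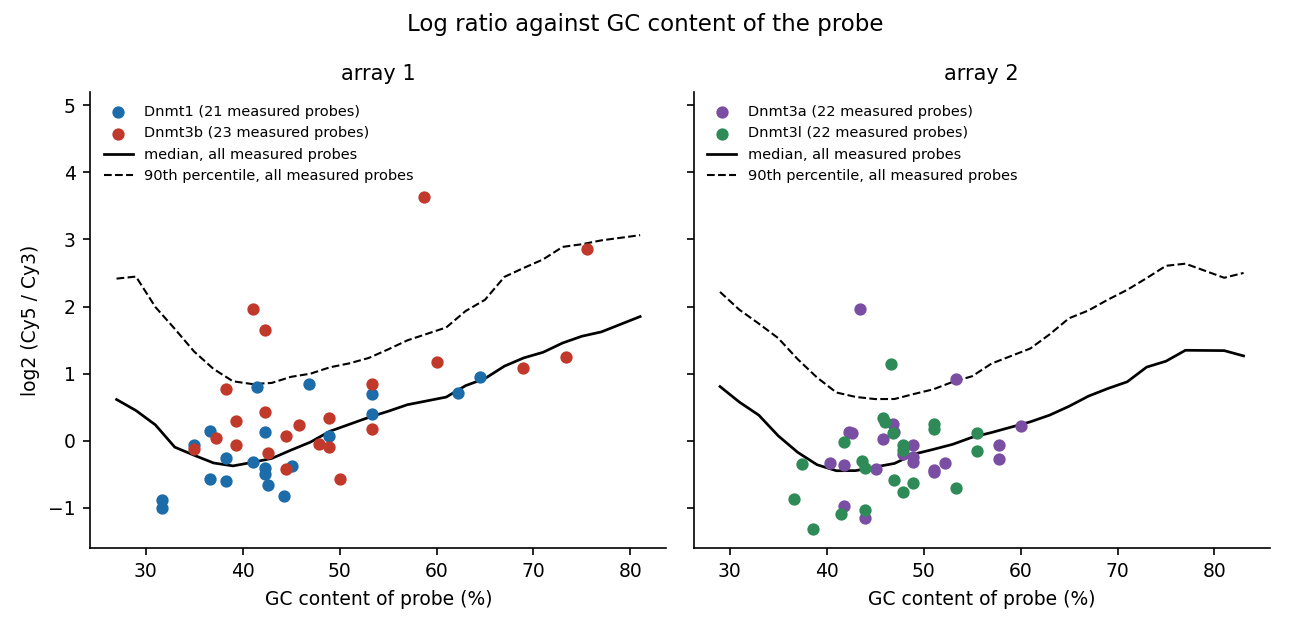
Log2 ratio of the measured probes of the 4 genes against their GC content in percent, with the median and the 90th percentile of all measured probes of the array in bins of 2% GC. The Dnmt3b probe at 3.64 lies far above the line of the 90th percentile, which passes over its own bin of 48 probes. The one at 2.85 lies just below that line. The Dnmt1 promoter probes, from 0.70 to 0.95, lie along the median curve or between it and the 90th percentile.

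Dnmt1, the maintenance enzyme, was covered by 29 probes over 7951 bp of chromosome 9, chr9:20826985-20834935 in the array's coordinates. RefSeq annotates 3 starts for it on the minus strand, of which 2 were matched by probes, at positions 20829179 and 20829535 of the array. Their promoters are shown with the matched probes in capitals, because the highest set mean of the gene comes from these 3 probes.
Dnmt1 at the upstream matched start, GRCm38.p6, chr9:20952930-20953229, minus strand: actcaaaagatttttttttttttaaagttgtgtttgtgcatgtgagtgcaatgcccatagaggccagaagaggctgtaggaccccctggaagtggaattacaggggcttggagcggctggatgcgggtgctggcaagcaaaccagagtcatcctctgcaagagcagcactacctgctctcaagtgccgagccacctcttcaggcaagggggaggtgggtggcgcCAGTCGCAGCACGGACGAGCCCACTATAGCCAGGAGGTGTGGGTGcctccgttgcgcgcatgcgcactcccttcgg
Dnmt1 at the downstream matched start, GRCm38.p6, chr9:20952574-20952873, minus strand: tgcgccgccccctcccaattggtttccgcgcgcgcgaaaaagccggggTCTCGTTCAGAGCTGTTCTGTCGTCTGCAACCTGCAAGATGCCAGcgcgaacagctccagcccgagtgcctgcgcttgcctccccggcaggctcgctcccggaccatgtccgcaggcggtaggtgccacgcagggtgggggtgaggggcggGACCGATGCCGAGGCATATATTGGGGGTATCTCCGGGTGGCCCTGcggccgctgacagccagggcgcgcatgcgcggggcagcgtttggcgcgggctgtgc

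The probe across the upstream matched start, chr9:20829517-20829561, had 7070 in Cy5 and 4338 in Cy3, a log2 ratio of 0.95 ± 0.22, the highest of the gene. The probe at -202 to -158 from the other start, chr9:20829337-20829381, had 708 in Cy5 and 515 in Cy3, a ratio of 0.70 ± 0.47. The third, at -51 to -7 from that start, chr9:20829186-20829230, had 2271 in Cy5 and 1633 in Cy3, a ratio of 0.72 ± 0.25. All 3 were above the array's median, and their mean was 0.79 with an SD of 0.14, the smallest SD among the highest sets of the 4 genes. Of the 29 probes, 13 exceeded 0 and 0 exceeded 1. The 5 probes within 500 bp of a matched start had a median of 0.70 and the 24 farther away a median of -0.29.

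Promoter probes as a class stood above the median of the array. The 10235 spots of array 1 that matched a RefSeq promoter of any gene had a median of 0.46, with 10% below -0.45 and 10% above 1.69. The Dnmt1 promoter probes lay above 62.9%, 62.0% and 72.7% of these (0.72, 0.70 and 0.95), and the Dnmt3b promoter probe above 79.7%. Against measured probes of their own GC content, those of Dnmt1 lay above 44.4%, 71.6% and 51.2%. In measured spots with the GC trend removed they were -0.10, 0.35 and 0.02. The remaining annotated start of Dnmt1 had no matched probe. Its promoter is shown with CTTTG and its complement CAAAG in capitals, because it is the one promoter sequence of the family that holds a 7-letter Tcf/Lef site, CTTTGAA read on the other strand, and the arrays gave no value in it.
Dnmt1 at the unmatched start, GRCm38.p6, chr9:20959839-20960138, minus strand: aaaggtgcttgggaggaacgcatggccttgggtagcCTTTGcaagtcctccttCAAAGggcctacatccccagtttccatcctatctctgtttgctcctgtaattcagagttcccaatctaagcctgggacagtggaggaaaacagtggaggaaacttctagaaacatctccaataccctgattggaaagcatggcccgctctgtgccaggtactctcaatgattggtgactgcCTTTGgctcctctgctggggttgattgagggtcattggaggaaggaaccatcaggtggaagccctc

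Dnmt3a, the other de novo enzyme, was covered by 31 probes over 7034 bp of chromosome 12, chr12:3749096-3756129. None matched its 3 RefSeq promoters, so the distance of these probes from a start was not determined. The highest probe and its measured neighbour downstream are shown because the ratio is high in the one and below 0 in the next.
Dnmt3a probe chr12:3751351-3751403: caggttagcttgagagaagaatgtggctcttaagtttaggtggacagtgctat
Dnmt3a probe chr12:3751507-3751551: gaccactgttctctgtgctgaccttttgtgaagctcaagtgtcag

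The first of these had 3000 in Cy5 and 784 in Cy3, a log2 ratio of 1.97 ± 0.33, and stood above 99.3% of the 10832 measured probes in its bin of GC content, 43.4% for the probe. The second had 787 in Cy5 and 1008 in Cy3, a ratio of -0.33 ± 0.40. The neighbour on the other side, a surrogate, gave -0.27 ± 1.43. The high value was thus confined to 1 probe, and its own set averaged 0.46. The highest set of the gene, centred on that surrogate neighbour, averaged 0.72 with an SD of 1.14 and held 2 surrogates. A second probe, chr12:3755602-3755646, had 5190 in Cy5 and 2798 in Cy3, a ratio of 0.92 ± 0.24, between neighbours of -0.34 and -0.74. The other 29 probes lay between -1.16 and 0.47, the median of all 31 was -0.27, and 9 were surrogates.

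Dnmt3l, the stimulating partner without catalytic activity, was covered by 31 probes over 8814 bp of chromosome 10, chr10:77698291-77707104. The 19 named Aire-Dnmt3l ranged from -1.09 to 1.14 with a median of -0.35, and the 12 named Dnmt3l alone ranged from -1.32 to 0.28 with a median of -0.23. Aire, the neighbouring gene, encodes the autoimmune regulator that acts in the thymus. The highest probe, chr10:77698491-77698535, had 963 in Cy5 and 446 in Cy3, a log2 ratio of 1.14 ± 0.51, above 96.5% of measured probes of its GC content, 46.7%. Its neighbours gave -0.02 ± 1.21 and, as a surrogate, -0.67 ± 1.22, and no set of the gene averaged above 0.31. The neighbour at -0.02 matched a RefSeq promoter of Aire, whose start lies at position 77698214 of the array. From the 2 matched starts of Dnmt3l, the highest probe lies at 1600 to 1644 and at -5955 to -5911 bases. This value near the Aire start therefore cannot be assigned to Dnmt3l alone. The value of 0.31 itself comes from 2 probes of which 1 was a surrogate, and measured spots alone gave 0.74 ± 0.82 (SD over 2 probes).

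RefSeq annotates 3 starts for Dnmt3l, of which 2 were matched by probes. The start farthest upstream lies among spots that the array names Aire, which the naming rule leaves out of the 119. Its promoter is shown with the 2 matching Aire probes in capitals, since they are the only values at that start.
Dnmt3l at the upstream start, GRCm38.p6, chr10:78042037-78042336, plus strand: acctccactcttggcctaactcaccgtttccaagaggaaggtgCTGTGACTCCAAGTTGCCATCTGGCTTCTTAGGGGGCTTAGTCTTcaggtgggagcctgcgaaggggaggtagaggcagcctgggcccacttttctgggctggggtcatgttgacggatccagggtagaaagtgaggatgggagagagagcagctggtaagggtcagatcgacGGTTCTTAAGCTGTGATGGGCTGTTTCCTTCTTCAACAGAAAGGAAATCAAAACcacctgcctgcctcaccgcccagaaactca

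The probe at -207 to -163 from that start, chr10:77696684-77696728, gave -1.33 ± 0.81, and 0.410% of the promoter probes of array 2 lay lower. The probe across the start, chr10:77696857-77696910, gave 0.26 ± 0.48, above 55.0% of them. The 13 Aire spots together reached a highest set mean of 0.05, and 0 of them were called. At the other matched start, the 5 probes within 500 bp lay between -0.87 and 0.17, with a median of 0.12, and the 26 farther probes had a median of -0.33. Neither matched start of Dnmt3l thus lay in a called set.

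Tcf/Lef letters were searched in every probe on both strands, as CTTTGAA and its variants ending otherwise, namely CTTTGAT, then also CTTTGTA, and finally CTTTGTT. All of these contain CTTTG. They occurred in 1 of 28 Dnmt3b probes, 1 of 29 Dnmt1 probes, 4 of 31 Dnmt3a probes and 0 of 31 Dnmt3l probes, against shares over all probes of 5.68% (array 1) and 5.71% (array 2). The probes are shown with CTTTG or CAAAG in capitals, so that their ratios can be set beside those of the called Dnmt3b probes.
Dnmt3b probe chr2:153391374-153391419: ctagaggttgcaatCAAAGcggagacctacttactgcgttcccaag
Dnmt1 probe chr9:20828546-20828599: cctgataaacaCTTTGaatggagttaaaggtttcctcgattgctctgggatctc
Dnmt3a probe chr12:3751938-3751989: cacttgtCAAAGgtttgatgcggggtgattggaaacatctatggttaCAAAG
Dnmt3a probe chr12:3752893-3752937: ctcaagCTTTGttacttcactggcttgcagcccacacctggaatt
Dnmt3a probe chr12:3753704-3753758: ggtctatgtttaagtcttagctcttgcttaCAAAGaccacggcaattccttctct
Dnmt3a probe chr12:3754354-3754408: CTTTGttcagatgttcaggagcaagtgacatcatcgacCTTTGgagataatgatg

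Their log2 ratios were -0.58 (Dnmt3b), -0.66 (Dnmt1) and 0.13, -0.07, -0.36 and -0.98 (Dnmt3a, in the order shown), and none was called. CTTTG alone occurred in 4 Dnmt3b, 3 Dnmt1, 9 Dnmt3a and 5 Dnmt3l probes, or 14.3%, 10.3%, 29.0% and 16.1%, against 17.2% and 17.3% of all probes of arrays 1 and 2. Among the 10 RefSeq promoters of the family, 1 of 3 of Dnmt1, 1 of 3 of Dnmt3a, 0 of 1 of Dnmt3b and 1 of 3 of Dnmt3l held CTTTG, against 53.9% of all 32851 promoters. The letters CGGCGGC, searched on both strands because probes that hold them had a median of 2.40 on array 1 (347 probes) and 2.06 on array 2 (369 probes), occurred in 0 probes of the family and in 1 of the 3 Dnmt3a promoters, against 10.1% of all promoters. Probes cover the region in part only, and the bases between them were not searched.

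**Figure D4:**
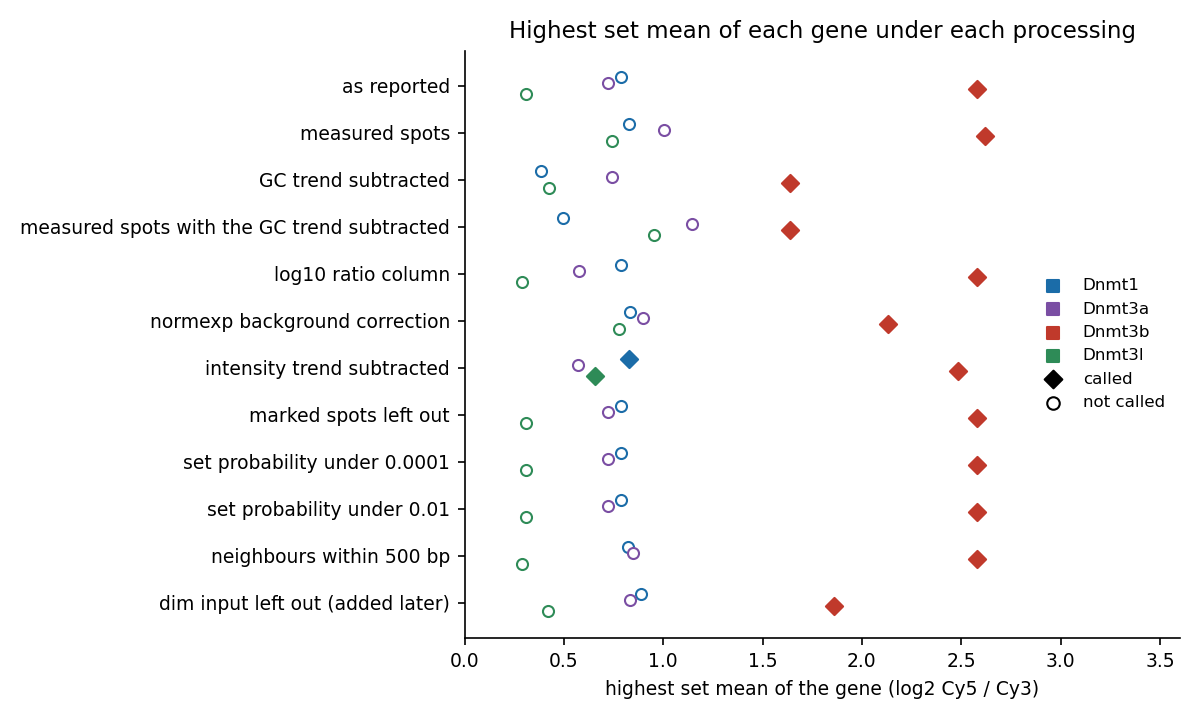
Highest set mean (log2 Cy5 over Cy3) of each gene as reported and under each other processing, with diamonds where the gene was called. Dnmt3b stays between 1.64 and 2.62 and is a diamond in 12 of 12, whereas Dnmt1 and Dnmt3l are diamonds in 1 and Dnmt3a in 0. No processing shown both removes the GC trend and leaves out dim input.

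The order of the family was read from the highest set means. Dnmt1 and Dnmt3b were on array 1 and Dnmt3a and Dnmt3l on array 2. A difference between genes of different arrays therefore cannot be told apart from a difference between the arrays. Dnmt3b led in 12 of 12 settings, with values from 1.64 to 2.62. These are not 12 separate checks, since a change of the set probability cannot alter a set mean. None of the 12 both removed the GC trend and left out dim input, so the call of Dnmt3b was not tried without both. The log10 ratio column, marked spots left out and neighbours within 500 bp also repeated 2.58. Dnmt1 ranged from 0.38 to 0.89, Dnmt3a from 0.57 to 1.15 and Dnmt3l from 0.29 to 0.96. These 3 ranges overlap and each gene was measured once, so no order among them was resolved. The SDs over the probes of a set were 0.14 for Dnmt1, 1.14 for Dnmt3a and 0.64 for Dnmt3l. They are a spread between neighbouring positions and not the error of a gene's value. Dnmt1 and Dnmt3l were called in 1 setting, subtraction of the trend of the ratio with intensity. That setting called 8772 of the 17032 genes over both arrays against 2192 otherwise reported here. In measured spots with the GC trend removed, Dnmt3a reached rank 1691 and Dnmt3l rank 2664 of 7948 genes on array 2, and Dnmt1 rank 7096 of 8323 on array 1. The Dnmt3l value there came from the set of the probe near the Aire start, chr10:77698491-77698535.

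A list of 35 other genes of DNA methylation, 31 of which had probes, was read in the same way. Of these, 4 were called, 3 of 15 on array 1 and 1 of 16 on array 2, where 22.0% and 3.56% of all genes were. The median of their highest set means was 1.06 on array 1 and 0.88 on array 2, against 1.22 and 1.08 over all genes with at least 3 probes. Tet1, Tet3, Zbtb4 and Ctcfl were matched to no spot by a current or older symbol and are not analysed here.

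The counts by role are small, and all are to be read against the shares of 22.0% (array 1) and 3.56% (array 2). Of the 6 partners of maintenance methylation, 0 of 2 on array 1 and 1 of 4 on array 2 were called. Uhrf2, a relative of the Uhrf1 protein that brings Dnmt1 to hemimethylated sites, reached 2.63 ± 0.37 (SD over 3 probes) through 3 called probes between 2.39 and 3.06 with a GC content of 33.9%. Dmap1, a protein that binds Dnmt1, followed at 1.18 ± 0.54 and was not called. Of the 7 genes of removal by oxidation or repair with probes, 0 of 4 on array 1 and 0 of 3 on array 2 were called, and Gadd45a, linked to demethylation by repair, was highest at 1.06 ± 0.78. Of the readers of methylated DNA, all 6 of them on array 2, 0 were called with all spots and 1 with measured spots, where 10.5% of the genes of that array were. That one was Mbd3, a subunit of the NuRD complex, at 1.68, named after its value was seen. Its set had 66.7% GC, and in measured spots with the GC trend removed Mbd3 gave 0.95 and was not called. Zbtb38, a zinc finger protein that binds methylated DNA, gave 1.58 ± 0.42 with 2 surrogates and 0.92 with measured spots.

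Of the 7 genes of protection and targeting with probes, 3 of 5 on array 1 and 0 of 2 on array 2 were called, and 2 of 5 and 0 of 2 in measured spots with the GC trend removed, where 18.7% and 7.04% of all genes were. Trim28, the corepressor that zinc finger proteins bring to imprinted sites and retroelements, reached 2.69 ± 0.50 in a set with 35.1% GC and 1 surrogate. It had 6 called probes in 2 separate stretches. Of these, 3 lay at chr7:11600794-11601289 under the joint name Zfp499-Trim28, where the set of 2.69 lies, and 3 at chr7:11611089-11611423 under Trim28. The former 3 averaged 40.7% GC and the latter 3 averaged 72.6%. Ehmt1, a histone H3 lysine methyltransferase, reached 2.06 ± 0.26 over 2 probes with 77.8% GC, and 0.66, not called, in measured spots with the GC trend removed. Dppa3, which protects methylation in the early embryo, was called at 1.77 ± 1.39 through 1 probe at 3.27, and is named after its value was seen. Of the 4 genes of methyl donor supply, 0 of 3 on array 1 and 0 of 1 on array 2 were called, and Mat2b, a regulatory subunit of methionine adenosyltransferase, was highest at 1.35 ± 0.12, from 3 surrogates. Trdmt1, the family's relative that methylates transfer RNA and that the array names Dnmt2, gave 2.01 ± 0.24 from 2 surrogates and was not called, and measured spots gave 0.88. Set beside these, Dnmt3b at 2.58 lay between Uhrf2 at 2.63 and Ehmt1 at 2.06, and no difference between these genes can be tested with 1 array each.

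**Figure D5:**
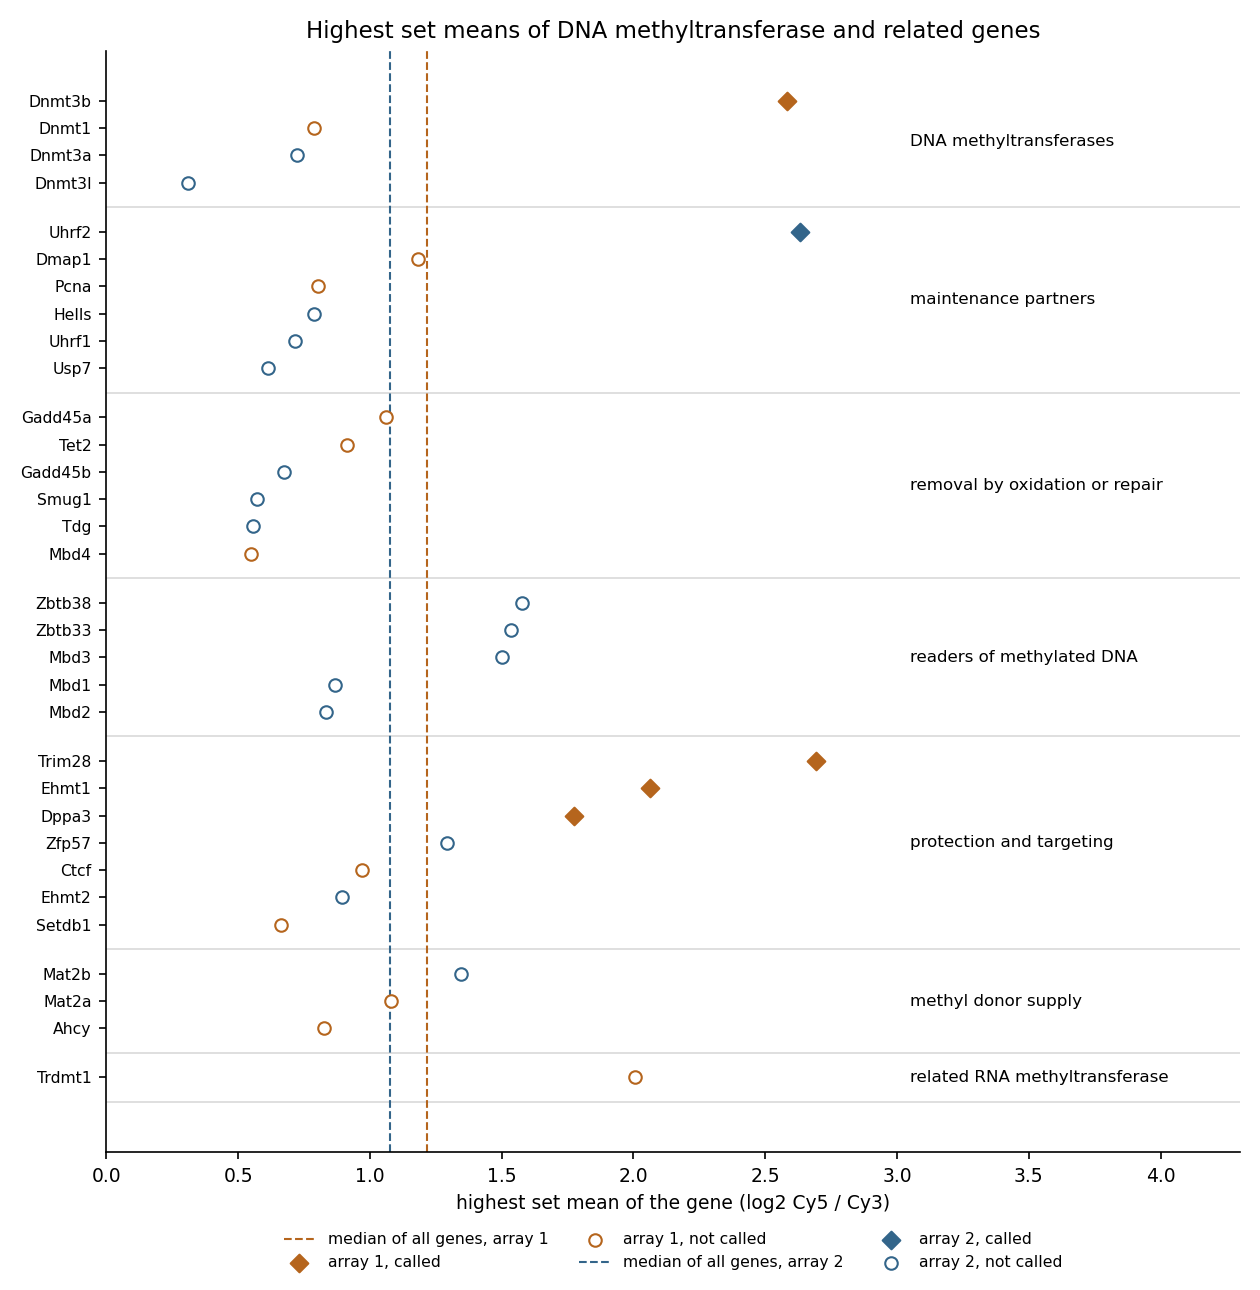
Highest set mean (log2 Cy5 over Cy3) of the 4 DNA methyltransferase genes and of 28 genes of the DNA methylation list, by role, with called genes as filled diamonds and array 1 in brown, array 2 in blue. Dashed lines are the medians over all genes with at least 3 probes, 1.22 on array 1 and 1.08 on array 2: Dnmt3b lies above, and Dnmt1, Dnmt3a and Dnmt3l lie below.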

How the data were processed

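Tcf3 immunoprecipitate (Cy5) and input (Cy3) of E14 cells were compared on 2 Agilent arrays with different probes. Agilent Feature Extraction, version 9.1.1.1, was the authors' software. It wrote the deposited intensity of each channel, corrected for background and dye per the file headers, with a surrogate in place of a signal not above background. The deposited log10 ratio of the channels and its error, also written by the authors' software, were used as an alternative and as the error of a probe.

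Here, log2 of processed Cy5 over processed Cy3 was centred on each array's median of non-control spots, and 9 and 18 non-uniform spots were left out. Because the ratio moved with GC content on both arrays, values with the median per GC bin of 2% subtracted are given beside the main ones. Sets joined a probe to the closest probe on either side, up to 1000 bp away. A probe was called where its set mean had an upper-tail normal probability under 0.001, with the scale taken from set means below 0 for each set size, and where the probe was under 0.001 with an adjacent one under 0.1, or the set held 2 probes under 0.005. Such probabilities are a calling rule on the scatter of 1 array and not a test. Precision is limited by the number of arrays. The authors' own bound regions were not used here.

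Array names were updated to current symbols with a RefSeq gene table of GRCm38.p6. Probe sequences are those of the scanner files, and promoters are those of RefSeq, build GRCm38.p6. A probe was placed in a promoter by exact match of at least 20 bases on either strand, and distances from a start assume that both builds agree between probe and start. Named genes are the 4 members, the gene that shares a probe name with one, and the 2 highest set means of each role of the DNA methylation list; a few of these are not reported here. The members and the list were chosen with earlier results of these data known. Of 11 alternatives, 10 were planned and 1 (dim input) was added after the data were seen. The caller was also run on simulated normal noise with planted regions. That noise held no GC trend and no surrogates, so the simulation does not show how calls fare with these. Python 3.11.15, numpy 2.4.6, pandas 2.3.3, R 4.3.3 and limma 3.58.1 were used.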

Additional observations from a re-analysis of the deposited data

How the results depend on the processing

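Dnmt3b was called as reported and under each of the 11 alternatives, and Dnmt3a under none. No alternative combined removal of the GC trend with leaving out dim input. A looser set probability, under 0.01, could not remove a call, and leaving out marked spots left the highest set mean of Dnmt3b as reported. Subtracting the trend of the ratio with intensity called Dnmt1 (highest set mean 0.83) and Dnmt3l (0.66) too, so that 3 of the 4 genes were called. That setting called 8772 of the 17032 genes over both arrays, and normexp background correction 8417, against 2192 as reported. They called 15 and 18 of the 31 genes of the DNA methylation list with probes, against 4. Calls of the family in these 2 settings, that of Dnmt3b included, are to be read against those shares. The log10 ratio column called 1352 genes and a set probability under 0.0001 called 1398. The cause of these changes was not tested. The highest set mean of Dnmt3b was 1.64 with the GC trend subtracted and 1.86 without dim input, a choice made after the data were seen, in place of 2.58, and each left 1 called probe in place of 2. Both values came from sets other than that of 2.58. Spots near background limit all 4 genes, with surrogates at 5 of 28 probes of Dnmt3b, 8 of 29 of Dnmt1, 9 of 31 of Dnmt3a and 9 of 31 of Dnmt3l, and no replicate bears on any value.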
